A study of Mus musculus with 10 samples.

Results

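The genes described here are 9 components of the pathway that runs from the receptor of leukemia inhibitory factor (LIF) to the STAT transcription factors, namely Lifr, Il6st, Jak1, Jak2, Stat3, Stat5a, Stat5b, Socs2 and Socs3. They were taken by gene symbol as components of this pathway, with earlier results of these data known, and they are 9 of the 55487 genes counted. All 9 also stood in the authors' expression matrix of 15686 genes, and all 9 passed the filter on low counts. Nuclear RNA-seq was analysed in 10 libraries of wild-type HM-1 cells, a mouse embryonic stem (ES) cell line, with 2 libraries at each of 5 stages of differentiation to blood in serum. ES cells were grown in medium with 1000 U/ml LIF. Hemangioblast (HB) cells were selected on beads as FLK1+ cells from embryoid bodies kept for 3 days in a medium that lists no LIF. HB cells were then placed in blast medium, which per the study's methods contained VEGF, IL-6 and conditioned medium of D4T endothelial cells. From this culture came an early hemogenic endothelium (HE1) sorted as KIT+ TIE2+ CD41-, a later one (HE2) sorted as KIT+ TIE2+ CD41+, and hematopoietic progenitors (HP) sorted as KIT+ TIE2- CD41+. From ES to HB and from HB to the blast culture the cell stage and the medium changed together, so that the effect of stage and that of LIF or IL-6 in the medium cannot be told apart in comparisons of ES or HB with another stage. HE1, HE2 and HP came from blast culture alike. All libraries come from 1 cell line, and p-values measure the spread between these libraries. The labels number the replicates without saying that they were separate cultures, while a legend of the study calls its RNA-seq replicates biologically independent.

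LIF binds the receptor LIFR, which pairs with gp130, the product of Il6st and the shared subunit of the receptors of the IL-6 family. The bound Janus kinases, JAK1 in particular, phosphorylate gp130 and STAT3, and STAT3 enters the nucleus and holds mouse ES cells in self-renewal. Blood progenitors depend instead on receptors such as those of erythropoietin, IL-3 and GM-CSF, which signal through JAK2 to STAT5A and STAT5B. SOCS proteins are induced by STATs and feed back on the pathway. SOCS3 binds gp130 and is a classical STAT3 target, and SOCS2 restrains the growth hormone receptor and is a classical STAT5 target. Transcript levels, as measured here, say nothing of phosphorylation.

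The counts on genes summed to between 24920434 and 58782055 per library, with a read pair that overlaps several genes counted on each. The fewest counts of the 9 genes were those of Stat5a in ES, with 157 in replicate 1 and fewer in replicate 2. Levels are given as CPM, counts scaled to a common library size, after TMM scaling, with a floor of 3 counts equal to 0.051 to 0.1204 CPM, which covers counting error only. The labels of the stages were checked against marker genes. The summed CPM of 4 pluripotency markers (Pou5f1, Nanog, Sox2 and Zfp42) lay between 1533 and 1598 in ES and between 1.08 and 5.56 in HP, and that of 4 endothelial markers (Cdh5, Tek, Pecam1 and Sox17) had its highest mean in HE1, between 1660 and 2835. The HE1 libraries stood apart from each other. Replicate 2 held 58.3 CPM of the pluripotency markers against 5.21 in replicate 1. It also held more of 5 smooth muscle and fibroblast markers (Acta2, Tagln, Col1a1, Col3a1 and Myocd), 1625 against 820.4 CPM. Of the 4 endothelial markers it held less, 1660 against 2835 CPM. All 9 genes of the pathway were lower in replicate 2, with ratios of replicate 1 to replicate 2 from 1.39 to 1.65. Of all tested genes, 51.3% were higher in replicate 1. Calls that changed without an HE1 library are given without it as well. Since cells were lysed in bulk, fewer cells that express a gene and less RNA per cell cannot be told apart.

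The level of every one of the 9 genes changed over the 5 stages (edgeR quasi-likelihood F test with Benjamini-Hochberg adjustment over 22596 genes, adjusted p between 1.32e-06 for Socs2 and 0.00265 for Il6st), as did 66.7% of all tested genes. Between the ends of the path, HP versus ES, the 5 kinase and STAT genes rose and the 4 receptor and SOCS genes fell, against 24.1% of all tested genes that rose and 27.5% that fell. The median log2 fold change of the 9 genes was 1.73, which is the value of Stat3 and describes no common shift of genes that moved both ways, and that of all tested genes was -0.01. Stat5a had the widest range of stage means, 33.2-fold, followed by Socs2 with 18.0-fold and Stat5b with 11.8-fold, and Il6st had the narrowest, 2.17-fold. The plot of the 9 genes by library shows 3 courses. Stat3, Stat5a, Stat5b, Jak1 and Jak2 were lowest in ES and highest in HE2 or HP, Il6st, Socs2 and Socs3 were highest in ES and lowest in HP, and Lifr peaked in HE1.

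**Figure D1:**
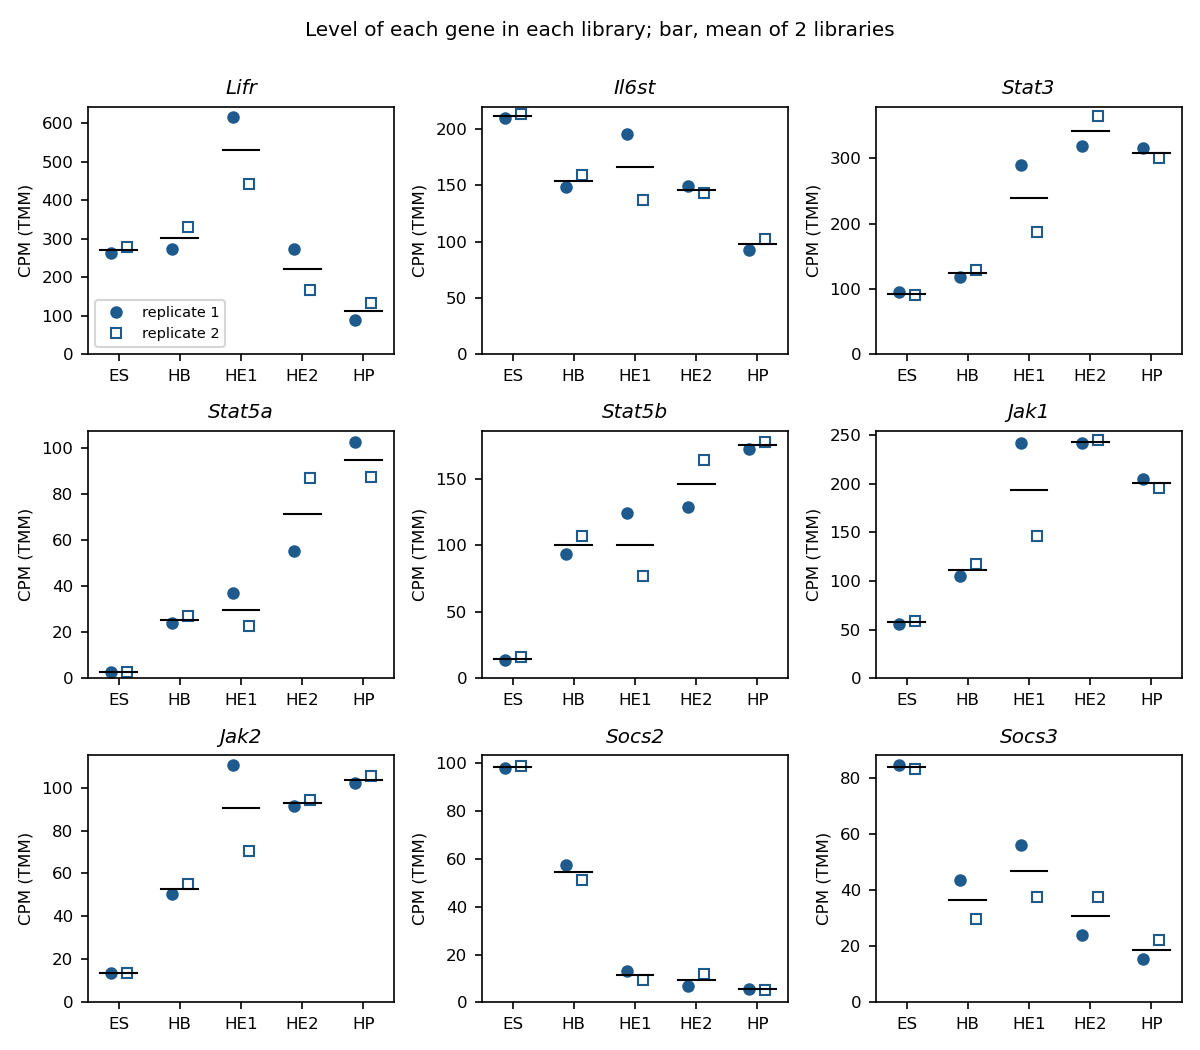
CPM after TMM scaling of each of the 9 genes (y axis, linear, from 0, a scale per gene) at the 5 stages (x axis), with circles for replicate 1, squares for replicate 2 and a bar for the mean of the 2 libraries. Stat5a ran from 2.78 and 2.92 CPM in ES to 102.4 and 87.4 CPM in HP, while Socs2 ran from 98.1 and 98.7 CPM to 5.77 and 5.15 CPM.

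Both receptor genes were lowest in HP, by way of different courses. Lifr (ENSMUSG00000054263, chr15:7090614-7197489, plus strand, GRCm38) encodes the subunit that binds LIF. It was at 263.6 and 279 CPM for ES, 273 and 332 for HB, 616 and 443 for HE1, 274 and 168 for HE2, and 88.4 and 135 for HP. The HE1 libraries were above all others and the HP libraries below all others, whereas HB overlapped ES and ES overlapped HE2. Lifr was 1.75-fold higher in HE1 than in HB (log2 fold change 0.81 ± 0.27 SE, adjusted p = 0.0427), then fell by 1.26 on the log2 scale to HE2 (SE 0.27, adjusted p = 0.02), and was 2.43-fold lower in HP than in ES (-1.28 ± 0.27, adjusted p = 0.0027). The HB versus ES difference was 0.16 with a 95% interval from -0.44 to 0.75 (adjusted p = 0.683). The rise to HE1 did not pass the test with a replicate block (adjusted p = 0.0604) or without ES replicate 1 (0.0699), ES replicate 2 (0.0702), HB replicate 1 (0.224), HB replicate 2 (0.106) or HE1 replicate 1 (0.193). The fall to HE2 did not pass it without HE2 replicate 2 (0.155). The summed CPM of 3 endothelial markers (Cdh5, Pecam1 and Sox17, leaving out Tek, the gene of the sorting antigen TIE2) was 159 to 164 for ES, 133 to 163 for HB, 1365 to 2271 for HE1, 759.7 to 1376 for HE2 and 358 to 404 for HP. Its mean was highest in HE1, as that of Lifr was, although HE1 and HE2 overlapped, but in HP it lay above ES and HB, where Lifr lay below both. The part of endothelial cells in the level of Lifr was not tested.

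Il6st (ENSMUSG00000021756, chr13:112464070-112510086, plus strand), which encodes gp130, moved less. Its libraries were at 209.6 and 214 CPM for ES, 149 and 159 for HB, 196 and 137 for HE1, 149.6 and 143 for HE2, and 92.7 and 103 for HP. Both ES libraries were above and both HP libraries below all others, and the stages between them overlapped. Il6st was 2.17-fold lower in HP than in ES (log2 fold change -1.12 ± 0.17 SE, adjusted p = 3.47e-04) and 1.70-fold lower than in HE1 (-0.77 ± 0.17, adjusted p = 0.00931), the latter with an adjusted p of 0.0808 without HP replicate 1. The step from ES to HB was -0.46 ± 0.17 with an adjusted p of 0.0527, which was 0.0399 with limma-voom, 0.031 with DESeq2, 0.0434 with total counts in place of TMM, 0.00184 in a fit of the 4 libraries alone, and 0.00897 without HE1 replicate 1 or HE1 replicate 2. Per kb of exon, Lifr was at 25.2 CPM and Il6st at 19.1 CPM for ES, at 49.2 and 15.0 CPM for HE1, and at 10.4 and 8.80 CPM for HP, so that transcripts of both receptor subunits were still counted in HP cells.

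The kinase genes rose early. Jak1 (ENSMUSG00000028530, chr4:101152367-101265282, minus strand), whose product is the main kinase at gp130, was at 56.3 and 59.0 CPM for ES, 105 and 118 for HB, 241.5 and 147 for HE1, 242 and 245 for HE2, and 206 and 196 for HP. It was 1.94-fold higher in HB than in ES (log2 fold change 0.96 ± 0.20 SE, adjusted p = 0.00387) and a further 1.74-fold higher in HE1 (0.80 ± 0.20, adjusted p = 0.014). That second step did not pass the test without HB replicate 1 (0.0999), HB replicate 2 (0.0605) or HE1 replicate 1 (0.0522). The HE1 and HP libraries overlapped, with a difference of 0.05 and a 95% interval from -0.40 to 0.50, but without HE1 replicate 1 the difference was 0.45 (adjusted p = 0.0366). The HE1 to HE2 step of 0.33 had an adjusted p of 0.261, and without HE1 replicate 1 it was 0.73 (adjusted p = 0.0117).

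Jak2 (ENSMUSG00000024789, chr19:29251828-29313080, plus strand), whose product serves the erythropoietin receptor, was at 13.5 and 13.7 CPM for ES, 50.3 and 55.0 for HB, 110.3 and 70.5 for HE1, 91.5 and 94.3 for HE2, and 102.3 and 105 for HP. All HB libraries were above all ES libraries, and HE2 lay between the HE1 libraries. The gene was 3.88-fold higher in HB than in ES (log2 fold change 1.96 ± 0.20 SE, adjusted p = 3.39e-05), 1.72-fold higher in HE1 than in HB (0.78 ± 0.19, adjusted p = 0.0109) and 7.64-fold higher in HP than in ES (2.93 ± 0.20, adjusted p = 1.73e-06). The HE1 step had an adjusted p of 0.0823 without HB replicate 1 and 0.0547 without HB replicate 2. From HE1 onward the differences were 0.04 (95% interval -0.37 to 0.45) to HE2 and 0.16 (-0.25 to 0.57) from HE2 to HP. Without HE1 replicate 1, HP exceeded HE1 by 0.56 (adjusted p = 0.0164).

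The 3 STAT genes lie beside each other on chromosome 11, with Stat5b (ENSMUSG00000020919, chr11:100780731-100850724, minus strand), Stat5a (ENSMUSG00000004043, chr11:100859351-100885169, plus strand) and Stat3 (ENSMUSG00000004040, chr11:100885098-100939540, minus strand) in this order. The ends of Stat5a and Stat3 overlap by 72 exon bases on opposite strands, and reads were counted by strand. Stat5a and Stat5b are near copies of each other in part, since 8.21% of the 50-base windows of Stat5a transcripts and 11.0% of those of Stat5b were shared. For 100-base windows the shares were 3.44% and 4.79%, and whether read pairs there were assigned to the right gene was not tested. The other pairs compared (Stat3 with each Stat5 gene, Jak1 with Jak2, Socs2 with Socs3) shared 0 such windows.

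Stat3, the effector of LIF, was lowest in the stage that was grown in LIF. It was at 95.1 and 91.0 CPM for ES, 118 and 129 for HB, 289 and 188 for HE1, 318 and 365 for HE2, and 315 and 301 for HP. No neighbours in the order HE2, HP, HE1, HB and ES overlapped. Stat3 was 1.93-fold higher in HE1 than in HB (log2 fold change 0.95 ± 0.19 SE, adjusted p = 0.00472) and 3.31-fold higher in HP than in ES (1.73 ± 0.20, adjusted p = 4.61e-05). The ES to HB step of 0.41 (95% interval -0.01 to 0.84) had an adjusted p of 0.115, which was 0.0162 with total counts in place of TMM, 0.00258 in a fit of the 4 libraries alone, 0.0207 without HE1 replicate 1 and 0.0206 without HE1 replicate 2. The HE1 to HE2 step of 0.52 (0.09 to 0.94) had an adjusted p of 0.0893 and was 0.86 without HE1 replicate 1 (adjusted p = 0.00909). HP exceeded HE1 by 0.37 (adjusted p = 0.182), and by 0.71 without HE1 replicate 1 (adjusted p = 0.00974).

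Stat5a and Stat5b, the effectors of the blood cytokine receptors, made their main step between ES and HB. Stat5a was at 2.78 and 2.92 CPM for ES, 24.0 and 27.1 for HB, 36.9 and 22.9 for HE1, 55.4 and 87.2 for HE2, and 102.4 and 87.4 for HP. Apart from HE1 and HB, whose libraries overlapped, each stage lay above the one before. HP was only narrowly apart from HE2, with 87.44 against 87.19 CPM in the nearest libraries. The HP versus HE2 difference of 0.41 (95% interval -0.14 to 0.96) did not pass the test (adjusted p = 0.834). Stat5a was 8.94-fold higher in HB than in ES (log2 fold change 3.16 ± 0.28 SE, adjusted p = 1.64e-05), 2.39-fold higher in HE2 than in HE1 (1.26 ± 0.25, adjusted p = 0.016) and 33.3-fold higher in HP than in ES (5.06 ± 0.30, adjusted p = 7.48e-07). The step to HE2 was 0.95 without HE1 replicate 2 (adjusted p = 0.0883) and 0.89 without HE2 replicate 2 (adjusted p = 0.125).

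Stat5b was at 13.6 and 16.2 CPM for ES, 93.5 and 107 for HB, 124 and 77.1 for HE1, 129 and 164 for HE2, and 173 and 178 for HP. The order of stages was that of Stat5a, and again only HE1 and HB overlapped. The HP versus HE2 difference of 0.26 (95% interval -0.22 to 0.74) did not pass the test (adjusted p = 0.963). Stat5b was 6.73-fold higher in HB than in ES (log2 fold change 2.75 ± 0.23 SE, adjusted p = 1.18e-05) and 11.8-fold higher in HP than in ES (3.56 ± 0.24, adjusted p = 1.57e-06). HP was 1.74-fold above HE1 (0.80 ± 0.22, adjusted p = 0.023), with adjusted p of 0.116 without HE1 replicate 2, 0.093 without HP replicate 1 and 0.0724 without HP replicate 2. The HE1 to HE2 step of 0.54 had an adjusted p of 0.108, and without HE1 replicate 1 it was 0.92 (adjusted p = 0.015). Stat5a made up 13.7% and 12.3% of both Stat5 genes per kb of exon in ES, 16.6% and 16.4% for HB, 18.8% and 18.7% for HE1, 25.1% and 29.2% for HE2, and 31.5% and 27.6% for HP.

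The promoters of the Stat5 genes, both of which rose from ES to HB, are shown for the annotated RefSeq start nearest to the end of each gene model, from 250 bases before to 50 bases after the start (GRCm38.p6). The Stat5a window is chr11:100859406-100859705 on the plus strand and the Stat5b window chr11:100850532-100850831 on the minus strand. RefSeq windows were found for 8 of the 9 genes, with 11 windows in all. The STAT site TTCNNNGAA, which reads the same on both strands, was in neither of these windows.
Stat5a: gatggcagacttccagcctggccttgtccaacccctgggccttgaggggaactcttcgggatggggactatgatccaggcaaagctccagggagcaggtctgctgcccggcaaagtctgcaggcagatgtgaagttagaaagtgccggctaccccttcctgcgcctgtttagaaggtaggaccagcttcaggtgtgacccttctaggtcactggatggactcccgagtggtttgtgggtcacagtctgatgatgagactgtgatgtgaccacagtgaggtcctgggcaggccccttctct
Stat5b: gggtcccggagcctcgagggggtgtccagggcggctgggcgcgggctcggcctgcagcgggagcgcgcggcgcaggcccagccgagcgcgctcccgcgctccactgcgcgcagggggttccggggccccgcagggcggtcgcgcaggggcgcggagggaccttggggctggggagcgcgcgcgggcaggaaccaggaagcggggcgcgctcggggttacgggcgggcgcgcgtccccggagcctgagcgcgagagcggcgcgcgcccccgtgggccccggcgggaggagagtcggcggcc

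The genes of the feedback inhibitors fell. Socs3 (ENSMUSG00000053113, chr11:117966079-117970047, minus strand) was at 84.8 and 83.3 CPM for ES, 43.6 and 29.8 for HB, 56.2 and 37.6 for HE1, 24.0 and 37.6 for HE2, and 15.6 and 22.2 for HP. Both ES libraries were above and both HP libraries below all others, and HB overlapped HE1 and HE2. Socs3 was 2.29-fold lower in HB than in ES (log2 fold change -1.20 ± 0.28 SE, adjusted p = 0.00644), 2.49-fold lower in HP than in HE1 (-1.31 ± 0.29, adjusted p = 0.00837) and 4.46-fold lower in HP than in ES (-2.16 ± 0.29, adjusted p = 1.43e-04). Without HB replicate 2 the HB step was -0.95 (adjusted p = 0.0701), and without HP replicate 1 the HE1 to HP difference was -1.08 (adjusted p = 0.0858). The course of Socs3 ran opposite to that of Stat3 at the ends of the path, since Stat3 was lowest and Socs3 highest in ES.

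Socs3 was the only one of the 8 genes with a RefSeq window in which TTCNNNGAA was found, in 1 of the 11 windows, beside 8.30% of the 32851 windows of all genes. The match began 154 bases before the start. The window, chr11:117969317-117969616 on the minus strand, is printed with the match in capitals. A match of letters is no proof of binding.
Socs3: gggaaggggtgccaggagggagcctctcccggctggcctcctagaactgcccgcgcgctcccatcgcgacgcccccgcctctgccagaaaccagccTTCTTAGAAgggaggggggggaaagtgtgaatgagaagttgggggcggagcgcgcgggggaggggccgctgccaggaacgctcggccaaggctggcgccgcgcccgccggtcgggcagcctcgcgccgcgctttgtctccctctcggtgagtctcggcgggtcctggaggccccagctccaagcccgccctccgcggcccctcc

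Socs2 (ENSMUSG00000020027, chr10:95385362-95417180, minus strand) fell further than Socs3. It was at 98.1 and 98.7 CPM for ES, 57.6 and 51.1 for HB, 13.3 and 9.44 for HE1, 6.73 and 12.0 for HE2, and 5.77 and 5.15 for HP. The stages were separate except for HE1 and HE2. The largest step was from HB to HE1, 4.79-fold lower (log2 fold change -2.26 ± 0.26 SE, adjusted p = 1.81e-04), and HP was 18.0-fold below ES (-4.17 ± 0.28, adjusted p = 1.57e-06). HB was 1.81-fold below ES (-0.86 ± 0.25, adjusted p = 0.0177), but the adjusted p was 0.0738 without ES replicate 1, 0.0778 without ES replicate 2, 0.0651 without HB replicate 1 and 0.116 without HB replicate 2. HP was 2.08-fold below HE1 (-1.05 ± 0.26, adjusted p = 0.0156), with 0.068 without HE1 replicate 1, 0.0721 without HP replicate 1 and 0.0713 without HP replicate 2. Socs2 was thus lowest in the stage in which Stat5a and Stat5b were highest.

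Read by transition, 4 of the 9 genes rose from ES to HB (Stat5a, Stat5b, Jak1 and Jak2) and 2 fell (Socs2 and Socs3), beside 17.8% of all tested genes that rose and 22.6% that fell. From HB to HE1, 4 rose (Lifr, Stat3, Jak1 and Jak2) and 1 fell (Socs2), beside 17.5% and 14.8%. From HE1 to HE2, Stat5a rose and Lifr fell, beside 6.12% and 7.11%. With all 10 libraries and TMM scaling, the Stat5 genes thus passed the test from ES to HB and Stat3 did not, but Stat3 passed it there under the alternatives given above, and the difference between the genes was not tested. From HE2 to HP, 0 genes passed in either direction among the 9 and 0% among all tested genes in edgeR. At an unadjusted p under 0.05, 1783 of all genes passed, and of the 9 none was higher and 4 were lower (Lifr, Il6st, Socs2 and Socs3). For all genes limma-voom called 39 higher and 27 lower in that comparison and DESeq2 154 and 311. Among the 9, limma-voom called 0 and DESeq2 called Lifr, which was lower by 0.98 on the log2 scale (adjusted p = 0.023, against 0.238 in edgeR). Without HE2 replicate 2, edgeR gave -1.30 for Lifr (adjusted p = 0.037). Without the filter on low counts, 210 of all genes were higher and 636 lower, and Lifr, Socs2 and Socs3 were among the latter (5.64e-06, 0.0239 and 0.0267). Across the endothelial to hematopoietic transition, HP versus HE1, Stat5a and Stat5b rose and Lifr, Il6st, Socs2 and Socs3 fell, beside 11.0% of all tested genes that rose and 13.9% that fell. In that comparison Lifr was 4.75-fold lower (-2.25 ± 0.28, adjusted p = 6.06e-04) and Stat5a 3.18-fold higher (1.67 ± 0.26, adjusted p = 0.00147). Consecutive transitions share the libraries of the stage between them, and HP versus HE1 and HP versus ES share the HP libraries.

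**Figure D2:**
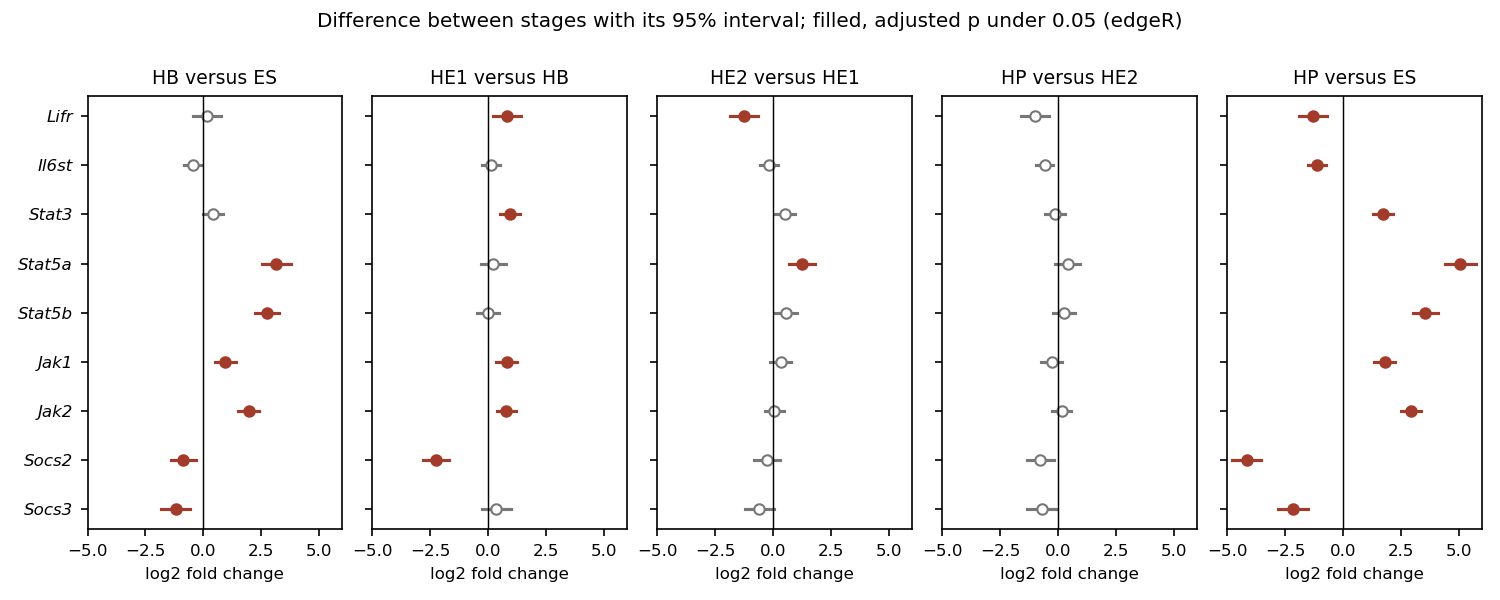
Log2 fold change between stages (x axis, later minus earlier) of each of the 9 genes (y axis), with lines for the 95% interval, filled red points for an adjusted p under 0.05 in edgeR and open grey points for the rest. In HP versus ES the 5 kinase and STAT genes lie to the right of 0 and the 4 receptor and SOCS genes to the left, and in HP versus HE2 no point is filled.

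The balance between members was described as ratios of counts per kb of exon within each library, which do not depend on library size and were not tested. The ratio of Stat5a to Stat3 was 0.0391 and 0.0429 for ES, 0.2702 and 0.2796 for HB, 0.1703 and 0.163 for HE1, 0.232 and 0.319 for HE2, and 0.434 and 0.388 for HP. It was thus lowest in both ES libraries and highest in both HP libraries, with a dip in HE1. With Stat5b added, the ratio to Stat3 was 0.285 and 0.3495 for ES, 1.63 and 1.70 for HB, 0.907 and 0.869 for HE1, 0.928 and 1.09 for HE2, and 1.38 and 1.40 for HP. The highest balance toward the Stat5 genes was therefore in HB and not in HP. From ES to HP the log2 ratio of both Stat5 genes to Stat3 rose by 2.14, and by 1.99 to 2.29 with a library left out.

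The ratio of Jak2 to Jak1 was 0.344 and 0.334 for ES, 0.687 and 0.6696 for HB, 0.657 and 0.691 for HE1, 0.544 and 0.5535 for HE2, and 0.715 and 0.771 for HP. It was lowest in both ES libraries, and the libraries of HB, HE1 and HP lay between 0.657 and 0.771. The ratio of Lifr to Il6st was 1.29 and 1.34 for ES, 1.89 and 2.15 for HB, 3.24 and 3.33 for HE1, 1.89 and 1.21 for HE2, and 0.983 and 1.35 for HP, so that HE1 stood above the other stages and HP overlapped ES. The ratio of Socs2 to Socs3 was 0.351 and 0.3595 for ES, 0.401 and 0.521 for HB, 0.07197 and 0.0762 for HE1, 0.08496 and 0.09701 for HE2, and 0.112 and 0.0704 for HP. Its only large step lay between HB and HE1.

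**Figure D3:**
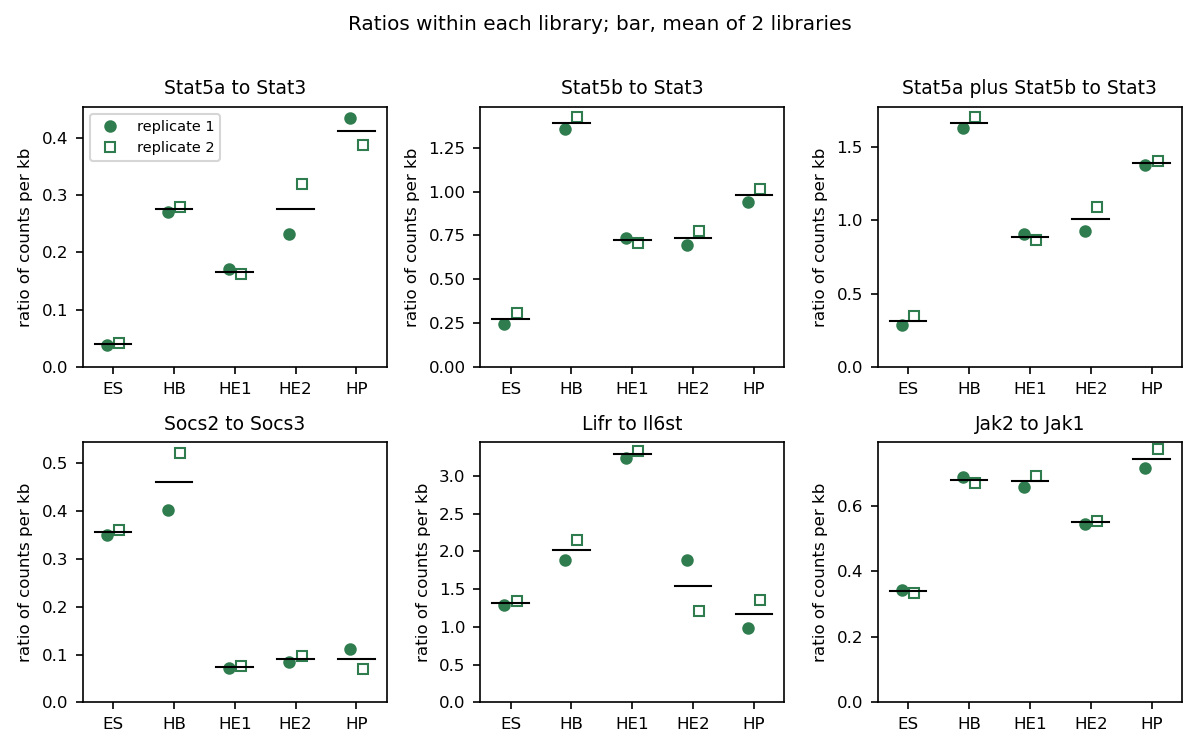
Ratio of counts per kb of exon between pathway genes within each library (y axis, linear, from 0, a scale per panel) at the 5 stages (x axis), with circles for replicate 1, squares for replicate 2 and a bar for the mean of the 2 libraries. The ratio of Stat5a plus Stat5b to Stat3 has means of 0.317 for ES, 1.67 for HB, 0.888 for HE1, 1.01 for HE2 and 1.39 for HP.

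Per kb of exon, the order of the 9 genes differed between the ends of the path. In ES the mean levels were 29.1 ± 0.38 CPM for Socs3 (SD, n = 2), 25.2 ± 1.00 for Lifr, 19.1 ± 0.25 for Il6st, 10.3 ± 0.05 for Socs2, 9.77 ± 0.30 for Stat3, 7.97 ± 0.27 for Jak1, 2.70 ± 0.04 for Jak2, 2.69 ± 0.34 for Stat5b and 0.40 ± 0.01 for Stat5a. Receptors and SOCS genes thus stood above the kinases and STATs, with Jak2 and Stat5b within their spread of each other. Exon length was that of all annotated exons of a gene, not of the transcripts expressed. Small gaps between genes, such as that of Socs2 and Stat3, therefore depend on it. In HP the mean levels were 32.3 ± 1.05 CPM for Stat3, 31.6 ± 0.65 for Stat5b, 27.8 ± 0.94 for Jak1, 20.6 ± 0.40 for Jak2, 13.3 ± 1.48 for Stat5a, 10.4 ± 3.05 for Lifr, 8.80 ± 0.64 for Il6st, 6.53 ± 1.62 for Socs3 and 0.57 ± 0.05 for Socs2. Stat3 and Stat5b, Stat5a and Lifr, Lifr and Il6st, and Lifr and Socs3 were within their spread of each other in HP. The STAT and kinase genes were thus not fully set apart from the receptor genes there.

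Most ligands and other receptors of the gp130 family were low. Of 13 listed genes all were tested, but only 4 reached a stage mean of 9 CPM. From ES to HB 2 rose and 5 fell, beside 17.8% and 22.6% of all tested genes, with a median log2 fold change of -0.88 beside 0.00. From ES to HP 3 rose and 5 fell, beside 24.1% and 27.5% (median -0.69 beside -0.01). Lif itself, the ligand, was at 14.3 and 15.1 CPM for ES, 1.88 and 1.01 for HB, 4.71 and 11.2 for HE1, 4.60 and 2.28 for HE2, and 2.80 and 3.15 for HP, and its fall from ES to HB was -3.35 ± 0.50 (adjusted p = 4.27e-04). The HE1 library with more Lif was replicate 2, which also held more of the pluripotency markers. Il6ra, which encodes the IL-6 binding subunit that pairs with gp130, was at 6.44 and 7.40 CPM for ES, 1.32 and 0.957 for HB, 1.43 and 1.98 for HE1, 8.50 and 11.6 for HE2, and 17.4 and 18.7 for HP. It rose from HE1 to HE2 by 2.55 ± 0.30 (adjusted p = 0.00111), the transition at which Lifr fell. Il27ra, the IL-27 receptor subunit, was highest in HE1 like Lifr, at 14.8 and 11.0 CPM, and at 3.53 and 3.78 CPM in HP. Il11ra1 rose from 6.03 and 7.46 CPM in ES to 55.5 and 34.6 CPM in HP (2.75 on the log2 scale, adjusted p = 9.60e-06), a value that is uncertain because the mouse has close copies of this gene.

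Among 15 receptor genes whose products signal through STAT5, 13 were tested, and Flt3 and Il2ra were too low. From HE1 to HE2 7 rose and 1 fell, beside 6.12% and 7.11% of all tested genes (median 1.55 beside -0.08). From HE1 to HP 8 rose and 1 fell, beside 11.0% and 13.9% (1.49 beside -0.02), and from ES to HP 8 rose and 2 fell, beside 24.1% and 27.5% (2.16 beside -0.01). These counts include Kit, whose product was a sorting marker, and without it 6, 7 and 7 of 12 rose (medians 1.71, 1.85 and 2.73). Without HE1 replicate 1, 8 rose from HE1 to HE2 and 9 from HE1 to HP, Kit included, and without HE1 replicate 2, 5 and 6 rose. From ES to HB, the step at which both Stat5 genes rose, 4 of these receptors rose and 4 fell, Kit among the latter, beside 17.8% and 22.6% (median 0.39 beside 0.00). Csf2rb, the common beta chain of the IL-3, IL-5 and GM-CSF receptors, was at 0.991 and 0.732 CPM for HB, 10.3 and 4.92 for HE1, 77.3 and 81.2 for HE2, and 124 and 176 for HP, with 2 and 4 counts in the ES libraries. Its rise from HE1 to HE2 was 3.39 ± 0.33 (adjusted p = 5.98e-04). Csf3r, the G-CSF receptor, rose at the same step by 4.60 ± 0.42 (adjusted p = 4.98e-04), from 0.799 and 0.561 to 14.8 and 18.1 CPM. Epor, the erythropoietin receptor, was at 4.22 and 3.36 CPM for ES, 12.9 and 10.4 for HB, 7.15 and 4.13 for HE1, 21.7 and 23.7 for HE2, and 37.2 and 37.2 for HP. Csf2rb2, a close copy of Csf2rb for which reads may be split, rose from 5.76 and 2.77 CPM in HE1 to 20.4 and 20.7 in HE2. Il2rg, the shared gamma chain, was at 17.3 and 4.92 CPM in HE1 and at 29.8 and 28.3 CPM in HE2, a difference that did not pass the test (adjusted p = 0.0722) but passed it without HE1 replicate 1 (0.006). Kit was at 230.1 and 410.1 CPM in HE2 and 363 and 251 CPM in HP, but KIT was a sorting marker and its level is no finding.

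Markers of other cell types were summed over the same stages. The summed CPM of 4 erythroid markers, all above the floor at each stage, was 2.01 to 2.50 in ES, 144 to 293 in HE1, 1132 to 1285 at the HE2 stage and 1671 to 2780 in HP. Lists that held the gene of a sorting antigen were summed without it. For 4 blood progenitor markers (Runx1, Spi1, Gfi1b and Ptprc, leaving out Kit and Itga2b, which encodes CD41) the range was 4.24 to 4.49 CPM in ES, 81.9 to 93.7 in HB, 61.4 to 64.6 in HE1, 365.5 to 668.5 in HE2 and 575 to 725 in HP. The megakaryocyte markers Pf4, Gp9 and Gp1bb summed to 0.2305 to 0.545 CPM in ES, 1.09 to 1.45 in HE1, 4.12 to 4.51 in HE2 and 4.10 to 11.2 in HP, with 1 of 3 above the floor in both ES libraries and 3 of 3 in HE2 and HP. The 5 macrophage markers summed to 17.8 to 18.8 CPM in ES, with Adgre1 at 0 and 3 of 5 above the floor. The sums of HE1 (27.8 to 51.45), HE2 (32.8 to 43.6) and HP (38.2 to 45.4) overlapped, with 5 of 5 above the floor. Single markers went opposite ways from HE1 to HP. Lyz2 went from 1.05 and 1.98 to 21.1 and 12.3 CPM, and Csf1r from 0.378 and 1.29 to 5.93 and 9.37. Adgre1 went from 0.21 and 0.231 to 1.12 and 2.26 CPM. Mrc1 fell from 42.3 and 10.6 to 1.12 and 7.59 CPM, and Cd68 overlapped. The 4 mast cell and basophil markers were at 0 in ES and HB, and in HP they summed to 2.64 to 5.86 CPM with 1 of 4 above the floor in both libraries. For 5 smooth muscle and fibroblast markers the range was 130.5 to 146 in ES, 69.5 to 72.2 in HB, 820.4 to 1625 in HE1, 612 to 949 in HE2 and 549.6 to 1146 in HP, and for 4 mesoderm and hemangioblast markers (T, Mesp1, Etv2 and Pdgfra, leaving out Kdr, which encodes FLK1) 7.38 to 8.09 in ES, 466 to 471 in HB, 12.4 to 15.5 in HE1 and 4.38 to 4.88 in HP. The part of these cells in the levels of the pathway genes was not tested.

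Most of the genes listed here as LIF-STAT3 targets in ES cells fell early, whereas the level of Stat3 itself did not fall. Control of the listed genes by STAT3 was not tested. Of 9 genes, all tested, 7 fell and 2 rose from ES to HB, beside 22.6% and 17.8% of all tested genes (median log2 fold change -1.89 beside 0.00), and 8 fell and 1 rose from ES to HP, beside 27.5% and 24.1% (-3.59 beside -0.01). Tfcp2l1, a factor of self-renewal, was at 381 and 389 CPM in ES and 5.49 and 3.29 in HB (-6.46 ± 0.49, adjusted p = 6.06e-06). Esrrb went from 399 and 386 to 7.83 and 6.11 CPM (-5.82 ± 0.64, adjusted p = 5.81e-05), and Klf5 from 257 and 252 to 24.4 and 23.1 CPM (-3.42 ± 0.16, adjusted p = 5.52e-07). Klf4 fell at this step, from 109.7 and 108 to 42.7 and 28.9 CPM, and again from HE1 to HE2, from 39.8 and 26.8 to 17.8 and 7.42 CPM (adjusted p = 0.0372), a step that did not pass the test without HE1 replicate 1 (0.0919) or HE1 replicate 2 (0.0763). Tbx3 went the other way at first, from 159 and 153 CPM for ES to 377 and 447 CPM for HB (1.40 ± 0.35, adjusted p = 0.00869), and was at 16.6 and 21.4 CPM for HP. In HE1, Esrrb was at 1.09 and 8.65 CPM and Tfcp2l1 at 2.02 and 7.39 CPM, with the higher value in replicate 2.

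The genes listed here as STAT5 targets in blood cells moved in both directions. The list did not set genes that STAT5 raises apart from genes that it lowers, and control by STAT5 was not tested. Of 8 genes 7 were tested, of which 4 rose and 2 fell from ES to HB, beside 17.8% and 22.6% of all tested genes (median 0.55 beside 0.00), and 3 rose and 3 fell from ES to HP, beside 24.1% and 27.5% (-0.49 beside -0.01). Cish, a SOCS family gene, was at 5.55 and 5.53 CPM for ES, 3.30 and 3.10 for HB, 9.33 and 7.06 for HE1, 3.93 and 2.35 for HE2, and 1.82 and 1.84 for HP, and HP was 4.46-fold below HE1 (-2.16 ± 0.33, adjusted p = 0.00148). Cish and Socs2, both known as STAT5 targets, were thus lowest in HP, where Stat5a and Stat5b were highest. Ccnd2, a G1 cyclin, rose 15.1-fold from ES to HB, from 9.11 and 10.9 to 136 and 167 CPM (3.92 ± 0.22, adjusted p = 1.14e-06), the step at which the Stat5 genes rose. It then fell 2.72-fold to HE1, to 59.1 and 52.2 CPM (-1.44 ± 0.20, adjusted p = 5.48e-04), a step at which the differences of Stat5a and Stat5b were 0.23 (95% interval -0.33 to 0.79) and 0.00 (-0.48 to 0.48). Bcl2l1, which encodes the survival protein BCL-XL, was at 42.3 and 45.3 CPM for ES, 60.6 and 67.4 for HB, 117 and 112 for HE1, 114 and 114 for HE2, and 105 and 87.3 for HP. Pim1, a kinase gene on both target lists, fell from 204 and 203 CPM for ES to 59.7 and 50.0 for HB (-1.89 ± 0.29, adjusted p = 4.68e-04) and was at 105 and 93.6 CPM for HP. Bcl6 was highest in HB at 16.4 and 14.0 CPM, and Id1 highest in HE1 at 91.5 and 72.1 CPM.

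Of the 6 other JAK and STAT genes, 1 rose and 3 fell from ES to HB, beside 17.8% and 22.6% of all tested genes (median -0.45 beside 0.00), and 4 rose and 0 fell from ES to HP, beside 24.1% and 27.5% (0.98 beside -0.01). Stat4, which serves IL-12, rose from HE1 to HE2 by 1.99 ± 0.31 (adjusted p = 0.00542), from 3.24 and 2.61 to 10.3 and 12.9 CPM. Stat6, the effector of IL-4, rose instead with the Stat5 genes from ES to HB, from 30.1 and 32.3 to 59.0 and 64.9 CPM (0.99 ± 0.16, adjusted p = 8.13e-04). Jak3 was at 118 and 123 CPM for ES, 82.1 and 55.6 for HB, and 236 and 211 for HP, and Tyk2 lay between 31.8 and 57.1 CPM in all libraries, with a fall from ES to HB (adjusted p = 0.0122) and a rise from HB to HE1 (adjusted p = 0.0284) that did not pass the test without HE1 replicate 1 (0.126).

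Of 16 other negative regulators, all tested, 4 rose and 2 fell from ES to HB, beside 17.8% and 22.6% of all tested genes (median 0.06 beside 0.00), and 6 rose and 3 fell from ES to HP, beside 24.1% and 27.5% (0.27 beside -0.01). Ptpn6, which encodes the phosphatase SHP1 of blood cells, was at 15.9 and 10.8 CPM for HE1, 61.0 and 101 for HE2, and 135 and 96.4 for HP, and rose from HE1 to HE2 by 2.60 ± 0.27 (adjusted p = 6.87e-04). Sh2b3, which encodes LNK, an adaptor that restrains JAK2, rose already from ES to HB, from 23.4 and 24.6 to 64.3 and 67.4 CPM (1.46 ± 0.18, adjusted p = 1.47e-04), as Jak2 did. Ptpn11, which encodes SHP2, was at 132 and 129 CPM for ES and 361 and 298.5 CPM for HP, and Ptpn1, another phosphatase gene, at 41.6 and 41.5 CPM for ES and 98.1 and 88.9 CPM for HP. Socs5 was highest in HE1, at 36.2 and 30.9 CPM against 10.8 and 13.1 CPM in ES.

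**Figure D4:**
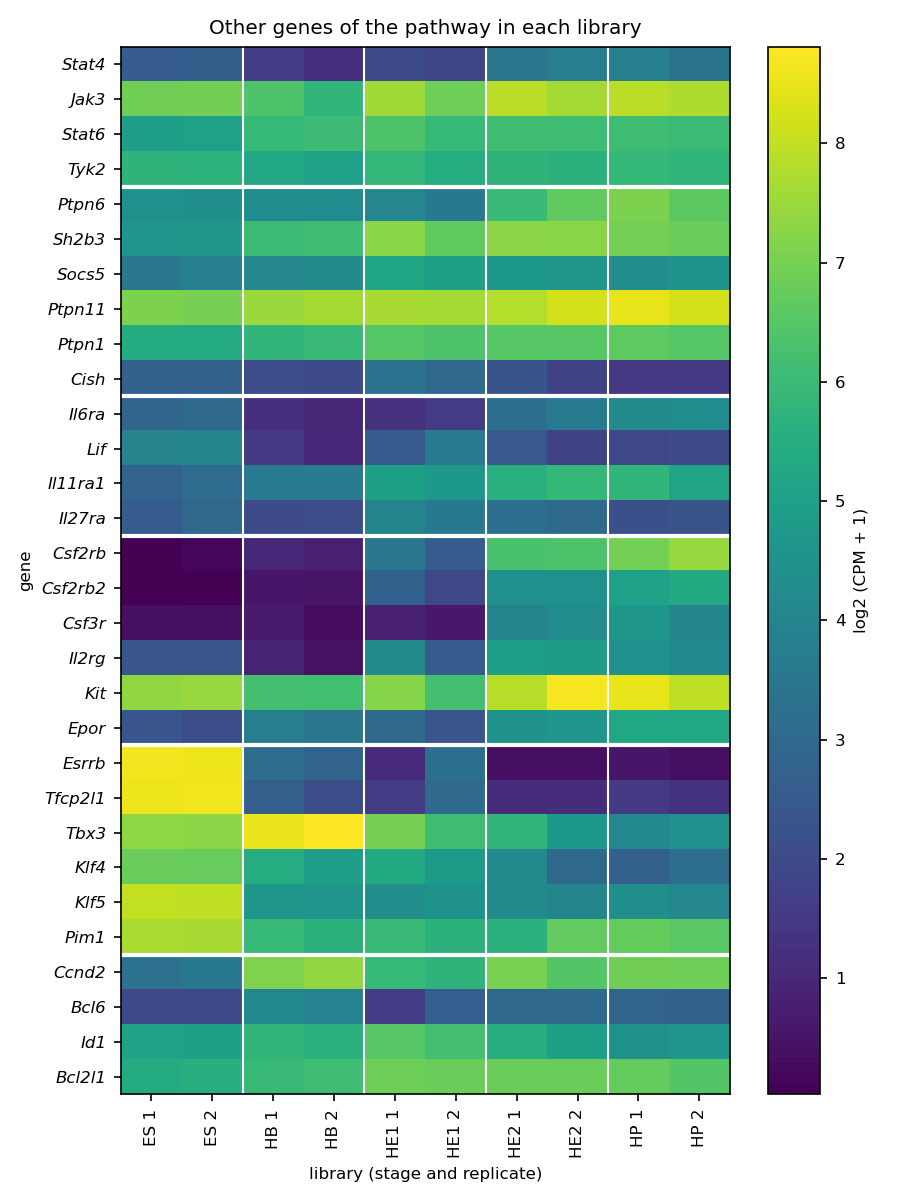
Log2 of CPM plus 1 (color) of the genes described outside the 9 (rows, grouped by white lines into other JAK and STAT genes, negative regulators, gp130 family, receptors that signal through STAT5, LIF-STAT3 targets and STAT5 targets) in each of the 10 libraries (columns). Esrrb and Tfcp2l1 are bright only in ES, and Csf2rb, Csf2rb2 and Csf3r are brighter in HE2 and HP than in the other stages.

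For each member the tested genes with the most similar course were sought by Pearson's r of log2 CPM over the 10 libraries, among 12234 genes with a stage mean of at least 9 CPM. Such values describe 5 stage means more than 10 independent points, since libraries of a stage lie together. The most similar gene was Rps6ka2 for Lifr (r = 0.991), Prrg3 for Il6st (0.957), Exoc6 for Stat3 (0.996), Grap2 for Stat5a (0.996), Tal1 for Stat5b (0.996), Stk3 for Jak1 (0.998), Erbin for Jak2 (0.998), Cmtm4 for Socs2 (0.991) and Nectin3 for Socs3 (0.936). The next 2 genes were Evi5 and Tjp1 for Lifr, Lrch2 and Lpar4 for Il6st, Ptpn12 and Adam10 for Stat3, Tgfb1 and Gypc for Stat5a, Cap2 and Eml3 for Stat5b, Wipf1 and Cnot6l for Jak1, Elf2 and Map2k5 for Jak2, Lin28a and Dhtkd1 for Socs2, and Pgap1 and Ankrd11 for Socs3. Among the 9 themselves, r was highest between Stat5a and Stat5b (0.983), followed by Stat5b with Jak2 (0.972), Jak1 with Jak2 (0.965) and Stat3 with Jak1 (0.964). Among the 5 kinase and STAT genes it was lowest between Stat3 and Stat5b, at 0.8305. It was 0.912 between Il6st and Socs3, and -0.928 between Stat3 and Socs2.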

How the data were processed

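Nuclear RNA was depleted of rRNA and made into stranded libraries. Per the study's methods and processing notes, the authors removed rRNA reads with RiboDetector, trimmed with Trimmomatic, used HISAT2 (v2.2.1) with the mm10 genome for alignment, and counted read pairs with featureCounts (v2.0.1). The deposited counts are whole numbers per gene over exons of Ensembl 102, by strand, with a pair that overlaps several genes counted on each, and nuclear introns are not counted. The authors' matrix holds a normalized score, the mean CPM of each stage, from which each member's own mean differed by at most 0.168 on the log2 scale. It served only to find the members.

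Counts were tested with edgeR (v4.0.16, R v4.3.3): filterByExpr, TMM, stage as the only term, all 10 libraries, 5 residual degrees of freedom, quasi-likelihood F test, Benjamini-Hochberg adjustment over 22596 genes, threshold 0.05. Fold changes are on the log2 scale. 55141 of 55487 gene IDs were matched to a symbol in GENCODE M21. The code was tested on simulated data. Of each pathway list, the 5 genes with the widest range of stage mean log2 CPM (prior count 2) among those at 9 CPM or above were named, plus Cish, Pim1, Kit and Epor, and for each member the 3 most similar genes. Some genes that this rule names are not reported here. The members and lists were chosen with earlier results of these data known. Alternatives were limma-voom (v3.58.1), DESeq2 (v1.42.0), library totals without TMM, no low-count filter, the 4 libraries compared, a replicate block, a 2-fold criterion and each library left out.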

Additional observations from a re-analysis of the deposited data

How the results depend on the processing

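All 9 genes changed over the 5 stages, and in HP versus ES 5 rose and 4 fell, under every alternative run. Of 864 log2 fold changes of members under an alternative, 813 stayed on their side of the threshold, 27 lost it, 24 gained it and 0 reversed a call, and 37 of these 51 changes came from leaving out a library. Leaving out 1 library moved the count of members lower in HB versus ES between 0 and 3, higher in HE1 versus HB between 1 and 4, higher in HE2 versus HE1 between 0 and 4 and lower between 0 and 1, lower in HP versus HE2 between 0 and 1, and higher in HP versus HE1 between 1 and 5 and lower between 1 and 4. With a change of at least 2-fold, 1 was lower in HB versus ES, 0 were higher in HE1 versus HB and 1 was higher in HP versus HE1. Without the filter on low counts, 3 were higher and 2 lower in HE2 versus HE1, and 3 were lower in HP versus HE2, where DESeq2 called 1. The ES to HP change of the log2 ratio of Lifr to Il6st, -0.20, ran from -0.4258 to 0.0351 with a library left out and turned sign without HP replicate 1. The cause was not tested.

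Same-numbered libraries deviated together in 2 of 10 pairs of stages (HB with HE2 and HE1 with HP, correlations 0.213 and 0.133), in opposite directions in 4 (down to -0.316) and in neither sense beyond 0.1 in the other 4, so the numbers were not taken to pair the samples, and the block covers pairing by number only. The replicate block changed 1 of 54 calls of members, that of Lifr in HE1 versus HB (log2 fold change 0.80, adjusted p = 0.0604).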
